A study of Mus musculus with 8 samples.

Results

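The insulin-like growth factor (IGF) family was examined in inguinal white fat, a depot under the skin of the groin, through 10 genes: the ligands Igf1 and Igf2, the receptors Igf1r and Igf2r, the acid-labile subunit gene Igfals, and the binding protein genes Igfbp3, Igfbp4, Igfbp5, Igfbp6 and Igfbp7. They were 10 of 23360 genes in the deposited tables. The genes were chosen by family membership, with results of the same genotype contrast on these libraries already known, and where a gene has several rows the row with the highest total is used. None of the 10 had more than 1 row. The contrast values below therefore describe these genes and test no statement about the family.

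RNA sequencing covered 8 libraries from mice aged 6 weeks. The 4 control libraries came from mice with floxed Lsd1 alleles, and the 4 knockout libraries from floxed Lsd1 mice crossed to Adipoq-Cre. Kdm1a is the symbol under which Lsd1, which removes methyl groups from histones, is listed, and the Adipoq promoter drives Cre in adipocytes, so other cells of the pad keep the gene. Both groups carry floxed alleles, and since Cre was present in knockouts alone, the transgene itself and loss of Lsd1 cannot be told apart. The labels do not say that each library is a separate animal, so p-values measure the spread between these libraries, which may be technical. Per library, 25671837 to 32442724 reads were recovered. Values are called scaled reads. They behave as whole read counts multiplied by 1 factor per library, which was inferred here from the low values. Their totals were 13999923 to 14369969. A log2 difference is the knockout mean less the control mean of log2(value + 1), given with a standard error (SE) from limma fitted to 14591 genes with Benjamini-Hochberg adjustment over all of them. A gene passed if its adjusted p was under 0.05.

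IGF1 and IGF2 are small secreted hormones that signal through the receptor tyrosine kinase IGF1R, while IGF2R binds IGF2 at the cell surface and delivers it to lysosomes. Most IGF in the circulation is held by binding proteins, above all in a ternary complex of IGF, IGFBP3 or IGFBP5, and the acid-labile subunit encoded by Igfals. Growth hormone, acting through its receptor and the transcription factor STAT5, induces Igf1 and Igfals in liver, and adipose tissue is another source of IGF1.

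The start region of Igfals is shown first because Igfals was the only member that passed in the genotype contrast. The sequence TTCNNNGAA, the core of the elements that STAT factors bind, was searched in windows of 300 bases, from 250 bases before to 50 bases after each annotated start (RefSeq, GRCm38.p6). It reads the same on both strands, so a search of 1 strand covers both. It was found in 2 of the 15 windows of the members, and both belong to Igfals. A further Igfals window (chr17:24878497-24878796, plus strand), downstream of both, held none. Over all genes 8.30% of 32851 windows held it, and 9.55% of 27025 genes had it in any window. These values describe Igfals, and enrichment was not tested. The window upstream (chr17:24877594-24877893, plus strand) has its match 236 bases before the start, and the window downstream (chr17:24877981-24878280, plus strand) has its match 58 bases before a start that lies 27 bases from that of the counted transcript NM_008340 in GENCODE M21. A match of letters is not a binding site, and no binding was measured here. The capitals mark the matches.
Igfals upstream window: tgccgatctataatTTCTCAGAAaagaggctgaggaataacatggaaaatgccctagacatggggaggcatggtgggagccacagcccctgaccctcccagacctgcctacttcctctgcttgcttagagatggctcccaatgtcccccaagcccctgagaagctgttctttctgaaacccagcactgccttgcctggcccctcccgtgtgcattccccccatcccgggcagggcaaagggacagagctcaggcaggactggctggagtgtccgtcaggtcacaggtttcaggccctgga
Igfals downstream window: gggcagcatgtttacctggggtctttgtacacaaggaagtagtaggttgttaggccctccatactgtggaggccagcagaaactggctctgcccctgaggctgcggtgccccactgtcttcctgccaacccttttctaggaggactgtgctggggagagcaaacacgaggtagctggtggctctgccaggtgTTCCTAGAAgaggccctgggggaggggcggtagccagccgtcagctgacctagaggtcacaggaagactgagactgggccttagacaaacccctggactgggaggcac

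The family spanned a wide range of levels, and binding proteins held the top of it. Per kilobase of the matching GENCODE M21 transcript, Igfbp7 was highest in controls at 5377 ± 419 scaled reads (SD, n = 4), above every library of every other member. Igfbp6 (2855 ± 404), Igfbp5 (2722 ± 520) and Igfbp4 (2610 ± 120) followed with overlapping libraries, so their order is not settled. Igf1 stood at 1397 ± 349 and Igfbp3 at 462 ± 129 per kilobase. Igf2r (187 ± 19.8) and Igfals (133 ± 41.5) overlapped in controls, and Igf1r (42.4 ± 5.14) and Igf2 (30.2 ± 4.65) were lowest. In knockouts Igfals was at 49.8 ± 10.6 per kilobase, where its libraries overlapped those of Igf1r (42.99 ± 9.05) and no longer those of Igf2r (169.6 ± 16.7).

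**Figure D1:**
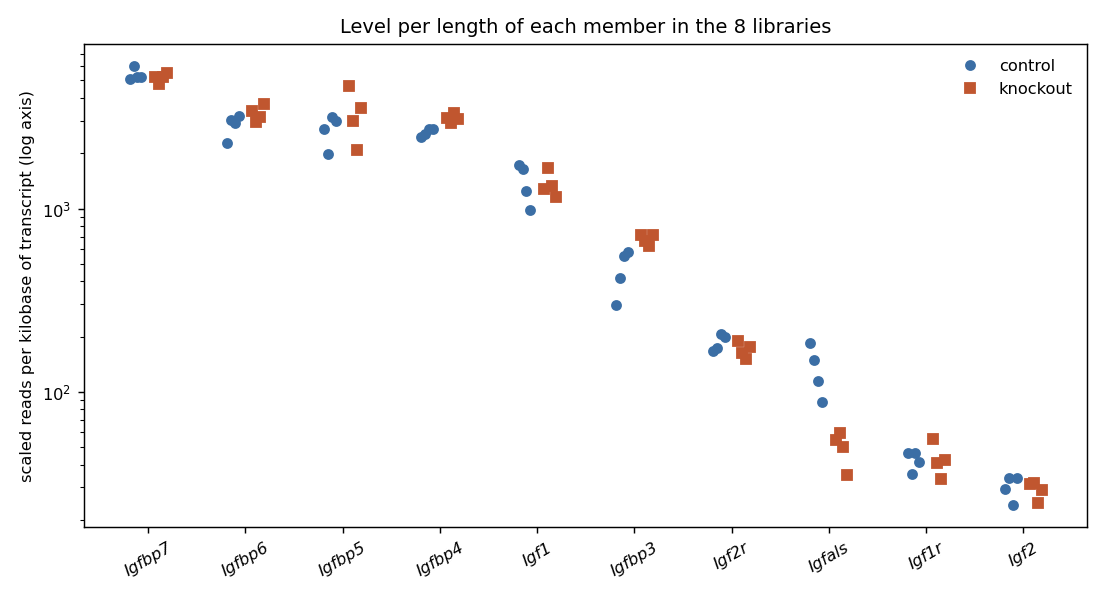
Scaled reads per kilobase of transcript (log axis) for each of the 10 members, with 1 point per library, circles for controls and squares for knockouts, ordered by control mean. Igfbp7 lies highest and Igf2 lowest, and Igfals is the member whose knockout points lie farthest below its control points.

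The targeted gene was lower in all 4 knockout libraries. Kdm1a was at 729 ± 51.1 in controls and 568 ± 15.4 in knockouts, and fell by 0.36 on the log2 scale (limma adjusted p = 0.0498), a call lost without any 1 library (adjusted p 0.0579 to 0.152). Markers of skeletal muscle summed to 192770, 185533 and 109578 scaled reads in knockout replicates 1, 2 and 4, to 12174 in knockout replicate 3 and to between 8243 and 36518 in controls. The 10 adipocyte markers, all present, summed to between 432448 and 547330 in controls and between 321350 and 354548 in knockouts, with 1 of 10 called lower and a median log2 difference of -0.26, and in bulk tissue fewer adipocytes and less of these RNAs per adipocyte cannot be told apart. Control replicates 1 and 2, whose title numbers 518 and 517 lie apart from the 356 to 361 of the other libraries, had B cell marker sums of 7503 and 5852 against 9007 to 12559 in the other 6. No gene passed in the other marker lists, whose control and knockout sums ran from 181964 to 219165 and 178984 to 246211 for progenitors, 15548 to 17957 and 13233 to 15824 for endothelium, 9980.3 to 11302 and 8709 to 12498 for mural cells, and 13242 to 16864 and 16691 to 21051 for 4 of 6 macrophage markers. Mammary markers were low, with sums of 25.1 to 51.9 in controls and 33.0 to 414 in knockouts. Of these 10 markers 7 were under 10 scaled reads in all libraries, and 1 was tested. Krt5 was at 237 and 82.2 and Krt14 at 137 and 39.7 in knockout replicates 1 and 2, and both were at 0.98 or below in the other 6 libraries. The mammary score used below as a covariate rests on these low values. The labels give no sex: Xist was at 3.43 or below in all 8 libraries, where the Y-linked gene Ddx3y was at 1122 to 1533.

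Of the 10 members 1 passed as lower and none as higher, while 1.64% of all tested genes passed in either direction and 0.356% passed as lower. An unadjusted limma p under 0.05 was reached by 3 of 10, against 14.5% of all tested genes. Control and knockout libraries did not overlap for 3 of 10 (Igfals lower, Igfbp3 and Igfbp4 higher), against 8.65% of all tested genes. The median log2 difference of the members was -0.01, and that of all tested genes was 0.02. Since the list was drawn up with this contrast known, nothing is read from these shares.

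**Figure D2:**
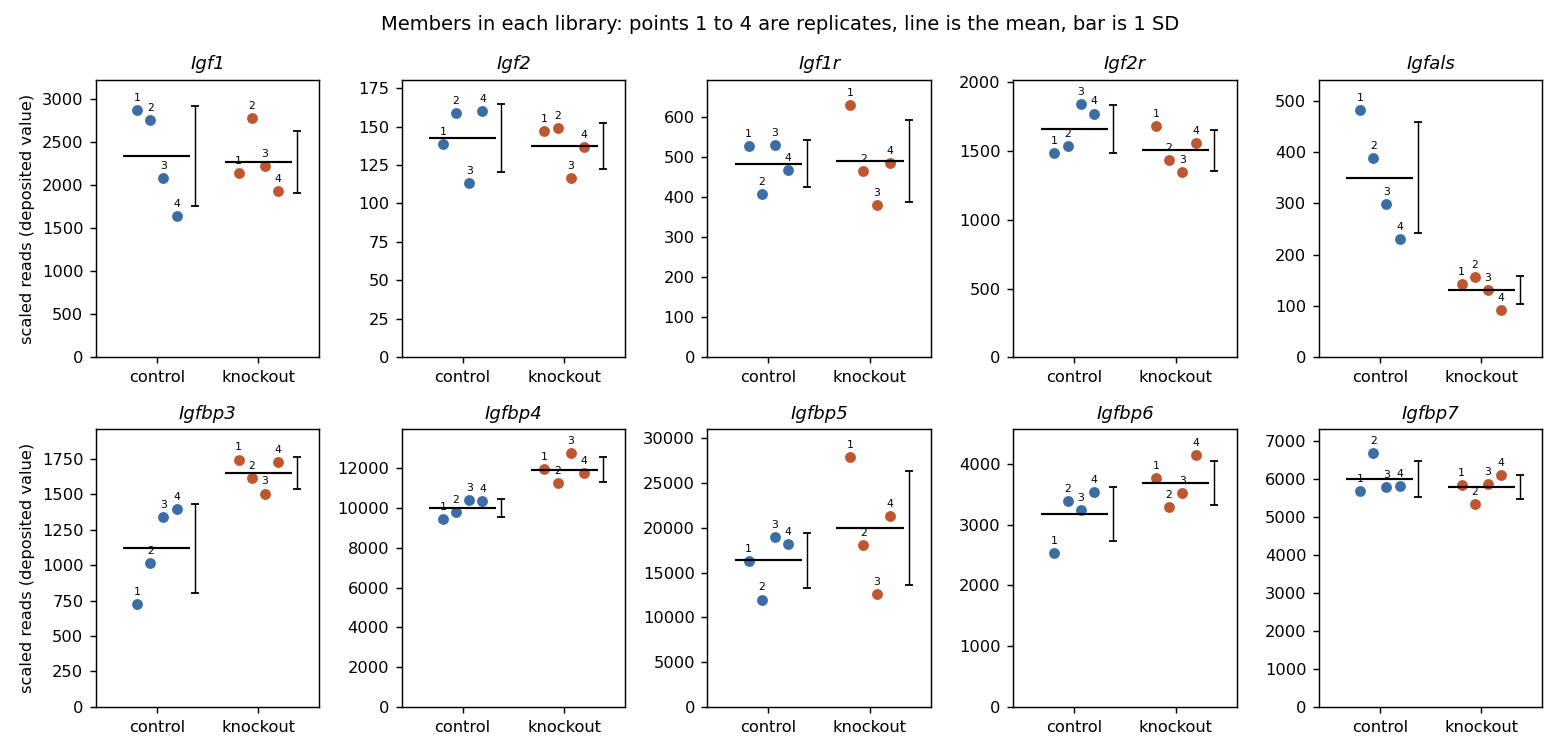
Scaled reads (linear axes from 0) of the 10 members in each control and knockout library, with the replicate number at each point, the mean as a line and 1 SD as a bar. Igfals, Igfbp3 and Igfbp4 have groups that do not overlap, while the other 7 overlap.

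Igfals encodes the acid-labile subunit, a leucine-rich repeat glycoprotein that extends the life of IGF in the circulation. It was at 482, 389, 299.7 and 231 scaled reads in control replicates 1 to 4 and at 143, 156, 131 and 91.9 in knockout replicates 1 to 4. Every knockout library lay below every control library, and the lowest control and the highest knockout were 231 and 156. The mean fell by 62.7%, from 350.4 ± 109 to 131 ± 27.8 (SD, n = 4 each), with a log2 difference of -1.39 (SE 0.24, limma adjusted p = 0.0201). The gene spans bases 24877844 to 24882011 of chromosome 17 (RefSeq, GRCm38.p6, plus strand), and no other GENCODE M21 gene overlaps it. The counted transcript starts within that span, at base 24878258 in GENCODE M21. Igfals is best known from liver, and the 6 hepatocyte markers summed to 400.5 to 1003 in controls and 347 to 569 in knockouts. Fgb was at 0 in all 8 libraries, Ttr at 0.98 or below, Ahsg at 2.65 or below and Apoa2 at 8.16 or below. Apoa1 was at 9.27 to 21.2 in controls and 7.08 to 13.5 in knockouts (log2 difference -0.48, limma adjusted p = 0.530). Alb was at 384 to 984 in controls and 330.3 to 552 in knockouts, and its part in the Igfals values was not tested.

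Controls differed among themselves in Igfals. Control replicates 1 and 2 held the highest values, and against control replicates 3 and 4 alone the log2 difference was -1.03 (limma adjusted p = 0.140). The call was also lost without control replicate 1 (-1.22, adjusted p = 0.0508), control replicate 2 (-1.32, 0.0594) or knockout replicate 4 (-1.23, 0.0640), with the B cell score as a covariate (-1.23, 0.0716) and with knockout replicate 3 as the sole knockout (-1.35, 0.166). Knockout replicate 3, whose muscle markers lay within the range of the controls, had 131 scaled reads of Igfals. With the muscle score as a covariate the difference was -1.54 (adjusted p = 0.04997). The summed adipocyte markers moved in the same direction as Igfals, and their part in it was not tested.

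The binding proteins that share the ternary complex with Igfals did not follow it downward. Igfbp3, the main carrier in serum, was at 723, 1017, 1337 and 1394 scaled reads in control replicates 1 to 4 and at 1744, 1612, 1504 and 1729 in the knockouts. All 4 knockout libraries were above all 4 controls, yet the controls spread widely, with a coefficient of variation of 27.8% against 6.80% in knockouts. The log2 difference of 0.60 (SE 0.18) did not pass (limma adjusted p = 0.168). Against control replicates 3 and 4 alone it was 0.27 (adjusted p = 0.427). The ratio of Igfbp3 to Igfals, each per kilobase, was 1.63, 2.83, 4.84 and 6.54 in controls and 13.2, 11.2, 12.4 and 20.4 in knockouts. That ratio could not overlap between the groups, since every knockout library was lower in Igfals and higher in Igfbp3 than every control. It adds no result to those of the 2 genes.

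Igfbp5, the other partner in the ternary complex and a binding protein of the extracellular matrix and of muscle, was at 16267, 11991, 18999 and 18144 in controls and at 27890, 18050.5, 12610 and 21354 in knockouts. The groups overlapped, and both the highest library and the one next to the lowest were knockouts. The log2 difference was 0.25 (SE 0.24, limma adjusted p = 0.673). The 3 knockout libraries with high muscle markers had 18050.5 to 27890 scaled reads and the one without had 12610. The controls, with muscle sums of only 8243 to 36518, had 11991 to 18999. Control replicates 3 (18999) and 4 (18144) thus lay above knockout replicate 2 (18050.5), whose muscle sum was 185533. The part of muscle in Igfbp5 was not tested. With the muscle score as a covariate the difference was -0.06 (adjusted p = 0.922), and with knockout replicate 3 as the sole knockout it was -0.35 (0.535), so its sign is not settled. Leaving out knockout replicate 1 gave 0.073, control replicate 2 gave 0.11 and knockout replicate 3 gave 0.45.

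**Figure D3:**
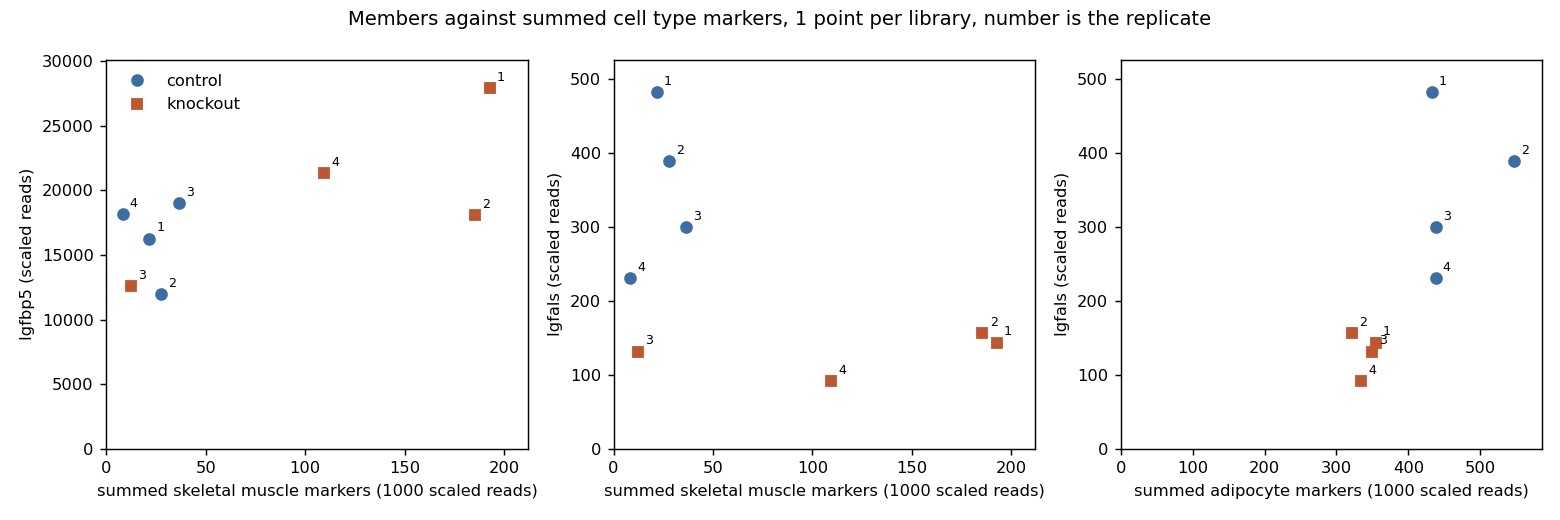
Scaled reads of Igfbp5 against summed skeletal muscle markers, and of Igfals against summed skeletal muscle and summed adipocyte markers, with 1 point per library and its replicate number. Knockout replicate 3 sits beside the controls in muscle markers and below them all in Igfals, and Igfbp5 ranges from 12610 in that library to 27890 in knockout replicate 1.

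Igfbp4, which holds IGF until the protease PAPP-A cuts it, was at 9461, 9780, 10397 and 10365 in controls and at 11959, 11230.1, 12746 and 11751 in knockouts. The knockouts lay above the controls without overlap, by 19.2% in the mean, and spread was small in both groups (coefficients of variation 4.58% and 5.28%). The log2 difference of 0.25 (SE 0.084) did not pass (limma adjusted p = 0.200), although DESeq2 on the recovered reads called it (0.23, adjusted p = 0.0223). DESeq2 called 776 genes in all, against 239 with limma, and edgeR left Igfbp4 uncalled (adjusted p = 0.230). Igfbp4 in knockout replicate 3, at 12746, was the highest of the 8.

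Igfbp6, which prefers IGF2, and Igfbp7, a weak IGF binder of vessel walls, overlapped between the groups. Igfbp6 was at 2528, 3389, 3239 and 3543 in controls and at 3772, 3294, 3512 and 4147 in knockouts (log2 difference 0.22, SE 0.12, limma adjusted p = 0.442), and the difference was 0.11 without control replicate 1. Control replicate 1 was the lowest of the 8 libraries for Igfbp3, Igfbp4 and Igfbp6. Igfbp7 was at 5696, 6697, 5799 and 5810 in controls and at 5854, 5335, 5859 and 6116 in knockouts (-0.05, SE 0.084, adjusted p = 0.832). It shares 85 exonic bases with Polr2b on the opposite strand, and reads there cannot be assigned without strand.

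Within the binding proteins, shares shifted little in most members. Of the 5 summed per kilobase, Igfbp7 made up 38.4% ± 3.51 (SD, n = 4) in controls and 33.3% ± 2.32 in knockouts, with overlapping libraries. Igfbp3 made up 3.26% ± 0.746 and 4.37% ± 0.190, and here every knockout library (from 4.21%) was above every control library (up to 3.92%). Without division by length the Igfbp3 shares overlapped, since the lowest knockout library (3.40%) was below the highest control library (3.55%). The shares of Igfbp4 (18.6% ± 0.434 and 20.1% ± 2.20), Igfbp5 (19.4% ± 3.48 and 21.02% ± 5.15) and Igfbp6 (20.3% ± 1.91 and 21.2% ± 1.22) overlapped. The sum itself was 14026 ± 834 in controls and 15618 ± 1426 in knockouts.

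Of the ligands, Igf1 far exceeded Igf2. Igf1, the main growth hormone-responsive ligand after birth, was at 2875, 2756, 2079 and 1638 scaled reads in controls and at 2145, 2776.5, 2222 and 1934 in knockouts. The groups overlapped, with control replicates 1 and 4 at the extremes. The log2 difference was -0.02 (SE 0.18, limma adjusted p = 0.974). Against control replicates 3 and 4 alone it was 0.29 (adjusted p = 0.715), so the sign of Igf1 depends on which controls enter.

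Igf2, an imprinted fetal growth factor, was at 139, 159, 113 and 159.9 in controls and at 147, 149, 116 and 137 in knockouts (log2 difference -0.05, SE 0.15, limma adjusted p = 0.917). Its counts are uncertain, because the gene Gm49394 shares 3596 exonic bases with it on the same strand and Igf2os shares 98 on the other. Igf1 made up 97.8% ± 0.755 of the summed ligands per kilobase in controls and 97.9% ± 0.328 in knockouts.

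The receptors overlapped between the genotypes. Igf1r, the signalling receptor, was at 529, 407, 531 and 469 in controls and at 629.9, 466, 381 and 484 in knockouts (log2 difference 0.0041, SE 0.15, limma adjusted p = 0.993). Both the highest and the lowest library were knockouts, and the lowest was replicate 3. Igf2r, the cation-independent mannose-6-phosphate receptor, was at 1484, 1539.7, 1845 and 1774 in controls and at 1686, 1437, 1345 and 1561 in knockouts (-0.14, SE 0.0999, adjusted p = 0.572). Leaving out either control replicate 3 or knockout replicate 3 gave -0.086. Its span overlaps the antisense transcript Airn over 28354 bases, with no shared exonic base in GENCODE M21.

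The other genes of the axis were 28 listed genes. They covered growth hormone signalling, further binding proteins, proteases and their inhibitors, receptor substrates and a mixed group listed with Igf2. That group was H19, the imprinted neighbour of Igf2, with Igf2bp1, Igf2bp2, Igf2bp3, Hmga2, Plagl1 and M6pr, and H19 was not analysed. Of the 27 analysed here 23 were tested, and 1 passed as lower and none as higher, against 1.64% of all tested genes. An unadjusted limma p under 0.05 was reached by 5 of 23, against 14.5% of all tested genes, and 4 of 23 did not overlap between groups, against 8.65%. Their median log2 difference was -0.06.

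Growth hormone signalling held the gene that passed. Ghr, the growth hormone receptor, was at 4163, 4149, 3738 and 3385 scaled reads in controls and at 2884, 2421, 2349.7 and 2793 in knockouts. No knockout library reached the lowest control. Ghr fell by 32.3% in the mean, from 3859 ± 372 to 2612 ± 266 (log2 difference -0.56, SE 0.0997, limma adjusted p = 0.0243). The difference was -0.45 without control replicates 1 and 2 (adjusted p = 0.200), and the call was lost without any 1 of control replicates 1, 2 and 3 or knockout replicates 2 and 4 (adjusted p 0.0509 to 0.0972) and with the B cell (-0.47, 0.0605) or mammary (-0.57, 0.0900) score as a covariate. With knockout replicate 3 as the sole knockout it was -0.71 (adjusted p = 0.129), and with the muscle score as a covariate -0.68 (0.0270). As for Igfals, the lower adipocyte marker sums of the knockouts move with Ghr, and their part was not tested.

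Stat5a, a transcription factor downstream of that receptor, was at 1228, 1479, 1438 and 1392 in controls and at 1225, 1058, 1105 and 1146 in knockouts. The groups did not overlap, by a margin of about 2 scaled reads. The log2 difference of -0.29 (SE 0.082) did not pass (limma adjusted p = 0.140), although DESeq2 called it (-0.31, adjusted p = 0.0154). DESeq2 called 776 genes against 239 with limma, and with edgeR Stat5a did not pass (adjusted p = 0.109). Its paralogue Stat5b had a log2 difference of 0.15 (adjusted p = 0.604) and Jak2, the kinase that binds the receptor, of 0.03 (0.932). Socs2, a STAT5-induced inhibitor of the pathway, had a control mean of 315 ± 101 and a knockout mean of 273 ± 39.5 (-0.16, adjusted p = 0.766). Cish, another such inhibitor, had a log2 difference of -0.08 (SE 0.87, limma adjusted p = 0.976). Its knockouts (204 to 336) lay above control replicates 2 to 4 (111 to 182) and below control replicate 1 (2898).

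Proteases and inhibitors of the binding proteins did not pass. Stc2, which blocks PAPP-A, was at 191, 221, 156 and 150.1 in controls and at 112, 128, 136 and 134 in knockouts, without overlap (log2 difference -0.47, SE 0.15, limma adjusted p = 0.170). Htra1, a serine protease that cuts IGF binding proteins, was at 2398, 2986, 2571 and 3003 in controls and at 3403, 3122, 3522 and 3917 in knockouts, also without overlap (0.35, SE 0.10, adjusted p = 0.143). Pappa itself was low, with means of 13.6 ± 4.84 (control) and 10.6 ± 3.56 (knockout, adjusted p = 0.724).

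Insr, the insulin receptor that can pair with IGF1R, was at 2073 ± 59.5 in controls and 1718 ± 293 in knockouts (log2 difference -0.29, SE 0.11, limma adjusted p = 0.271), and passed without knockout replicate 1 (-0.39, adjusted p = 0.0414). The adaptor gene Grb10 was at 1195 ± 116 and 1349 ± 241 (0.16, adjusted p = 0.614). Of the further binding proteins, Igfbp2 ranged from 7.37 to 44.9 in control and from 5.99 to 36.3 in knockout libraries (-0.14, adjusted p = 0.944). Igfbp1 was at 0 in all 8 libraries, where 3 reads, the most that a count of 0 allows, correspond to 1.33 to 1.64 scaled reads by counting error alone. The imprinted neighbour H19 was not analysed here.

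**Figure D4:**
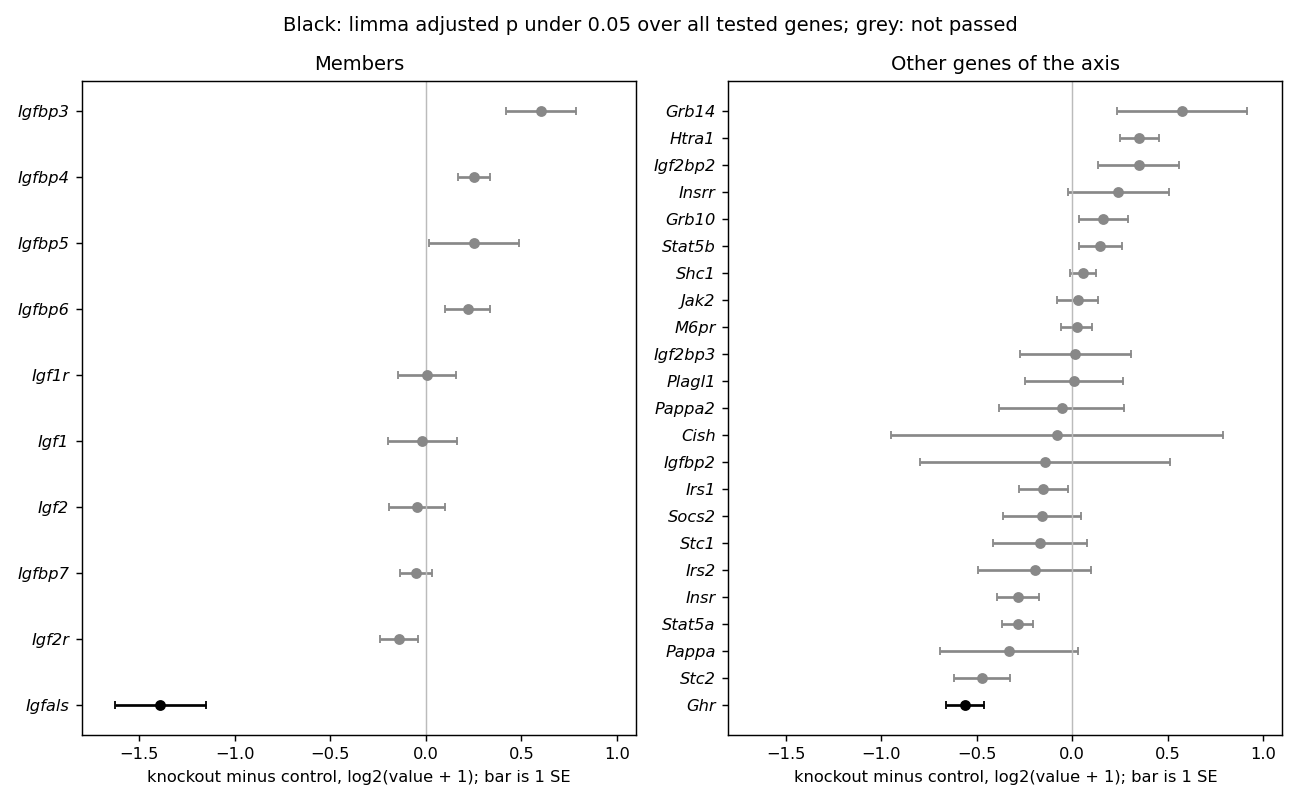
Log2 difference (knockout minus control) with 1 SE for the 10 members and for the 23 tested other genes of the axis, black where the limma adjusted p over all tested genes was under 0.05. Igfals at -1.39 and Ghr at -0.56 are the black points.

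Among 11267 other genes with a mean of at least 100 scaled reads, the 3 closest to Igfals in pattern over the 8 libraries were Clstn3, Ehhadh and Wfdc21. Likeness was the root mean square difference of log2 values after centring each gene, which was 0.30 for Clstn3, 0.31 for Ehhadh and 0.32 for Wfdc21, where Igfals itself had a root mean square spread of 0.78. Clstn3, a calsyntenin, was at 588 ± 108 in controls and 209 ± 62.6 in knockouts. Ehhadh, a peroxisomal fatty acid oxidation enzyme, was at 1154 ± 511 and 472 ± 94.2, and Wfdc21 at 572 ± 75.9 and 163 ± 19.7. All 3 are ranked by likeness over libraries that include the contrast, so their lower knockout means follow from the ranking.

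**Figure D5:**
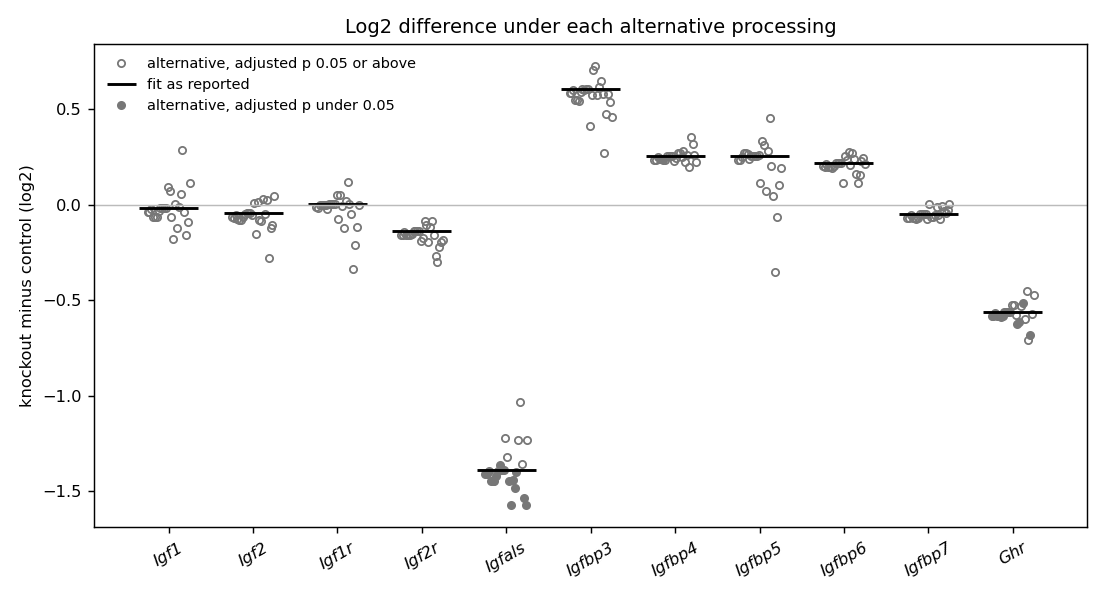
Log2 difference of each member and of Ghr under the 24 alternative settings (points, filled where the adjusted p was under 0.05) beside the value as reported (line). Igfals stayed between -1.57 and -1.03 and Ghr between -0.71 and -0.45, while Igf1, Igf2, Igf1r, Igfbp5 and Igfbp7 cross 0.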

How the data were processed

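RNA of inguinal fat was sequenced in 4 control and 4 knockout libraries. TopHat (version 2) placed the reads on mm10 and HOMER counted them, and the authors tested genes with edgeR and DESeq (1.8.3), per the labels' design text. For the annotation, strandedness and scaling: not given in the sources used here. The deposited values are a signal: a step of 0.442 to 0.545, specific to the library, divided them into whole numbers, within 0.02 plus rounding, for 100% of the low values above 0. Even multiples made up 53.8 to 55.8% of these.

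Each file listed 23373 entries; a single entry lacked an accession, was at 0 and was left out. Accessions were matched to symbols with RefSeq (22527) and GENCODE M21 (124), and 721 kept their accession. The main test was limma's trend method (3.58.1) applied to log2(value + 1), for genes with at least 10 scaled reads in at least 4 libraries. Python 3.11.15 and R 4.3.3 were used. The edgeR (4.0.16) quasi-likelihood test on recovered reads called 218 genes and limma 239.

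Members and lists were chosen with earlier results of these data known. Named genes were the 10 members, Kdm1a, axis genes that passed, 8 fixed axis genes, and the 3 genes closest to Igfals in pattern. Stat5a, Stat5b, Jak2, Htra1, Igfbp1, Alb, Fgb, Ttr, Ahsg, Apoa1, Apoa2 and Cish were added after their values were seen. Marker lists covered adipocytes, progenitors, endothelium, mural cells, macrophages, B cells, mammary epithelium, muscle, hepatocytes and sex. Alternatives were TMM, RLE and upper-quartile scaling, edgeR, DESeq2 (1.42.0), limma-voom, halved reads, pseudocounts of 0.5 and 5, filters, leaving out libraries, and marker scores as covariates. The chi-square per degree of freedom between libraries of a group was 26.6 to 143, so none was a repeat deposit of another. Protein sequences and H19 were not used here.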

Additional observations from a re-analysis of the deposited data

Results flagged for a closer look

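In groups of 4 libraries, a library was singled out where its gap to the nearest of the others, divided by the range of the group, exceeded Dixon's critical value. Of 68 groups (34 genes in each genotype) 3 did so, and chance gives about 1 in 20. Igfbp7 in control replicate 2 was at 6697, where the other controls lay between 5696 and 5810. Cish, a STAT5-induced inhibitor of growth hormone signalling, was at 2898 in control replicate 1, where the other controls lay between 111 and 182. In knockouts Cish was at 204 to 336, above those other controls and below control replicate 1. Socs2 was highest in control replicate 1 too, at 455 against 215 to 297 in the other controls. Igfals (482) and Igf1 (2875) were also highest there, while Igfbp3, Igfbp4 and Igfbp6 were lowest there. Pappa in knockout replicate 3 was at 5.31, where the other knockouts lay between 11.97 and 13.1.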

How the results depend on the processing

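Over 24 alternatives, Igfals kept its sign in all and its call in 18, and Ghr its sign in all and its call in 15. Igf2r, Igfbp3, Igfbp4 and Igfbp6 kept their signs in all 24. Of 14591 genes 239 passed, and 776 with DESeq2, 145 with the mammary and 127 with the B cell covariate, 97 without control replicates 1 and 2, 19 with knockout replicate 3 as the sole knockout (chosen after seeing the data, the lone library assumed to vary like the others), and 87 to 449 without 1 library. The members that passed numbered 1, and 2 with DESeq2, 0 to 1 without 1 library, and 0 without control replicates 1 and 2, with the B cell covariate or with knockout replicate 3 alone. The other axis genes that passed numbered 1, and 2 with DESeq2, 0 to 2 without 1 library, and 0 without control replicates 1 and 2, with the mammary or B cell covariate or with knockout replicate 3 alone.

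Signs turned for the following log2 differences, none of which had passed. Igf1 ranged from -0.18 to 0.093 without 1 library, and was 0.29 without control replicates 1 and 2 and 0.11 with the B cell covariate. Igf2 ranged from -0.15 to 0.030, and was 0.024 and 0.045 in the same order. Igf1r ranged from -0.12 to 0.12, and was -0.014 with TMM, -0.017 with RLE, -0.0012 with upper-quartile scaling, -0.0036 with DESeq2, -0.020 with limma-voom, -0.048 without control replicates 1 and 2, -0.34 with knockout replicate 3 alone, and -0.21, -0.12 and -0.00032 with the muscle, mammary and B cell covariates. Igfbp5 ranged from 0.073 to 0.45 without 1 library, and was -0.35 with knockout replicate 3 alone and -0.062 with the muscle covariate. Igfbp7 ranged from -0.077 to 0.0040 without 1 library and was 0.0042 with the B cell covariate. Igfbp2 ranged from -0.57 to 0.33, and was 0.87 with knockout replicate 3 alone and 0.14 with the muscle covariate. Socs2 ranged from -0.32 to 0.034 and was 0.10 without control replicates 1 and 2. Grb10 was -0.16 with knockout replicate 3 alone and -0.0059 with the muscle covariate. The cause of these turns was not tested.

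Without division by length, longer transcripts take more of the shares by construction, and the Igfbp3 shares of the groups overlap: in controls Igfbp3 3.02%, Igfbp4 27.4%, Igfbp5 44.3%, Igfbp6 8.69% and Igfbp7 16.5% of the 5 binding proteins and Igf1 93.98% of the ligands, and in knockouts Igfbp3 3.87%, Igfbp4 28.3%, Igfbp5 45.6%, Igfbp6 8.65%, Igfbp7 13.7% and Igf1 94.2%. No paired analysis was made, because the labels do not pair control with knockout libraries. With 184 to 987 reads of Igfals and 231 to 323 of Igf2 per library, counting error adds to the spread between libraries.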
